A study of Mus musculus with 12 samples.

Results

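Fatty acid uptake and binding in the mouse liver was followed through 10 genes of the deposited count table, which spells them CD36, LPL, VLDLR, SLC27A2, SLC27A4, SLC27A5, FABP1, FABP2, FABP4 and FABP5 and which are given here in mouse spelling. They were taken by symbol, whatever their level, from the 56441 genes listed, and all 10 passed the filter on low counts that left 15228 genes for testing. Liver RNA came as 12 sequencing libraries, in 4 groups of 3. C57BL/6 mice had been injected at 6 to 8 weeks of age through the tail vein with AAV8, a liver-directed viral vector, and were fasted for 24 h after 1 month. They had received either the empty vector (fasted vector) or a vector carrying fumarate hydratase, FH (fasted FH), the tricarboxylic acid cycle enzyme that makes malate from fumarate. Leptin-deficient ob/ob mice of the same age had received the same vectors and were kept on a high-fat diet for 1 month (ob/ob vector and ob/ob FH). The sources used here do not name the promoter of the vector. The models differ in genotype, diet and fasting at once, so these cannot be told apart in any comparison of ob/ob with fasted livers. No group of fed, lean mice was analysed here. The series asks what more FH does to a fatty liver.

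Long-chain fatty acids reach the hepatocyte bound to albumin or inside triglyceride-rich lipoproteins. Lipoprotein lipase (Lpl) frees them from triglycerides, the VLDL receptor (Vldlr) takes up whole remnant particles, and CD36 and the fatty acid transport proteins of the SLC27 family move free fatty acids across the membrane, the latter also joining them to coenzyme A. Inside the cell the fatty acid binding proteins carry them to the mitochondria, peroxisomes, endoplasmic reticulum or nucleus. Healthy liver relies on Fabp1, Slc27a2 and Slc27a5, while Cd36, Vldlr and Fabp4 are known for their rise in fatty liver.

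The vector libraries held 12231828 to 14884323 counts, with 20312 to 21629 genes detected. The FH libraries held 19107050 to 25873379 counts, with 18414 to 19922 genes detected. Depth, or a difference in library preparation, therefore cannot be told apart from FH in either FH comparison. The labels do not tie each library to its own mouse, so the p-values rest on a spread between libraries that may be technical. Levels are CPM, each library's counts scaled to a common total by TMM factors; TMM sets the typical gene equal between libraries, and differences are log2 values from edgeR with p adjusted over all genes tested. These factors spanned 1.12 to 1.37 for vector and 0.722 to 0.907 for FH libraries. On plain library totals the median of all genes moved from -0.04 to -0.71 in the fasted FH comparison and from -0.01 to -0.63 in the ob/ob one, so the FH differences of the 10 genes and the counts over gene lists are also given on totals. Fh1, the mouse gene of FH, was at 319 ± 85.4 CPM (SD, n = 3) in fasted vector and 812 ± 104 CPM in fasted FH libraries, and at 122 ± 17.9 and 679 ± 106 CPM in the ob/ob groups (log2 difference 1.35 and 2.48, edgeR adjusted p = 9.95e-05 and 1.79e-06, and 0.69 and 1.86 on totals). Hepatocyte is the labelled cell type. Its 10 markers summed to 50369 to 187060 CPM, but markers of endothelium, Kupffer and stellate cells were also present, so the libraries hold RNA of other liver cells. In bulk RNA, fewer cells of a type and less RNA per cell cannot be told apart.

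Sex markers, clock genes and 1 unusual library touch the results. Counts of Xist were 2242 to 4992 in the 3 ob/ob FH libraries, with 0 counts over 4 Y-linked genes, while the other 9 held 1 to 24 counts of Xist and 2304 to 5181 Y-linked counts. Sex markers and FH therefore cannot be told apart in the ob/ob FH comparison or in the difference between the FH effects. Between ob/ob FH and fasted FH libraries, sex markers cannot be told apart from the model. Ob/ob vector replicate 2 stood apart from replicates 1 and 3. It held 3 counts of Cidea, a lipid droplet gene of fatty liver, against 566 and 1159, and 46 counts of the adipocyte gene Adipoq against 0 and 0. It also held 8 counts of the clock gene Dbp against 615 and 702. Values of the 10 genes whose call changes without it are given both ways.

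In fasted livers 5 of the 10 genes passed the test between FH and vector. Slc27a2, Slc27a4, Slc27a5 and Vldlr rose with FH and Fabp4 fell, with a median log2 difference over the 10 genes of 0.91 against -0.04 over all genes tested. Over all genes, 55.0% were called, 27.4% higher and 27.6% lower, so a count of 5 is near the background and says nothing particular about the 10 genes. The groups did not overlap for 6 of the 10, 4 higher and 2 lower with FH, where 61.0% of all genes did not overlap (30.4% higher, 30.6% lower). On library totals 3 of the 10 rose (Slc27a2, Slc27a4 and Slc27a5) and 3 fell (Fabp2, Fabp4 and Lpl), where 62.9% of all genes were called, 7.16% higher and 55.7% lower. Without ob/ob vector replicate 2, which enters through the filter, scaling and spread shared by all groups, 8 of the 10 were called, against 57.7% of all genes.

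In ob/ob livers 3 of the 10 passed, and all 3 rose with FH: Slc27a4, Slc27a5 and Lpl. Over all genes 53.7% were called, 25.8% higher and 27.9% lower, and the median of the 10 was 0.43 against -0.01. The groups did not overlap for 3, all higher with FH (Slc27a2, Slc27a4 and Slc27a5), against 61.8% of all genes (30.6% higher, 31.2% lower). On library totals Slc27a4 and Slc27a5 rose and Fabp1, Fabp2 and Fabp4 fell, where 60.1% of all genes were called, 6.83% higher and 53.3% lower. Without ob/ob vector replicate 2 the count was 5, where 49.9% of all genes were called.

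Between the models, 6 of the 10 genes passed among the vector libraries, against 17.5% of all genes. Cd36, Fabp1, Fabp4, Fabp5 and Vldlr were higher in ob/ob livers and Slc27a2 was lower, where 9.36% of all genes were called higher and 8.18% lower. Among the FH libraries 6 passed as well, against 40.2% of all genes (18.6% higher, 21.6% lower). There Cd36, Fabp4, Fabp5, Lpl and Vldlr were higher in ob/ob livers and Slc27a2 was lower. The groups did not overlap for 5 of the 10 with the vector, 3 higher and 2 lower in ob/ob livers, against 29.6% of all genes (14.8% each way). With FH they did not overlap for 8, 6 higher and 2 lower, against 56.7% of all genes (25.4% higher, 31.3% lower). On library totals 6 of the 10 were higher and 1 lower in each, where 22.1% (17.9% higher, 4.21% lower) and 36.2% (26.5% higher, 9.70% lower) of all genes were called. Without ob/ob vector replicate 2 the counts called were 8 and 8, against 21.3% and 42.5% of all genes. Comparisons with a group in common share its 3 libraries, so their counts are not independent.

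None of the 10 passed the test of the difference between the FH effects in the 2 models, where 8.42% of all genes were called (4.77% higher, 3.65% lower), nor on library totals, where 7.11% were called. At an unadjusted p under 0.05 edgeR counted 4 of them (Fabp1, Fabp4, Slc27a2 and Lpl), against 24.9% of all genes. DESeq2 called 0, against 11.1% of all genes, and limma-voom with sample weights 2 (Fabp1 and Slc27a2), against 12.9%. Without ob/ob vector replicate 2, edgeR called Vldlr alone, at -1.56 (adjusted p = 0.0139), where 10.3% of all genes were called.

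**Figure D1:**
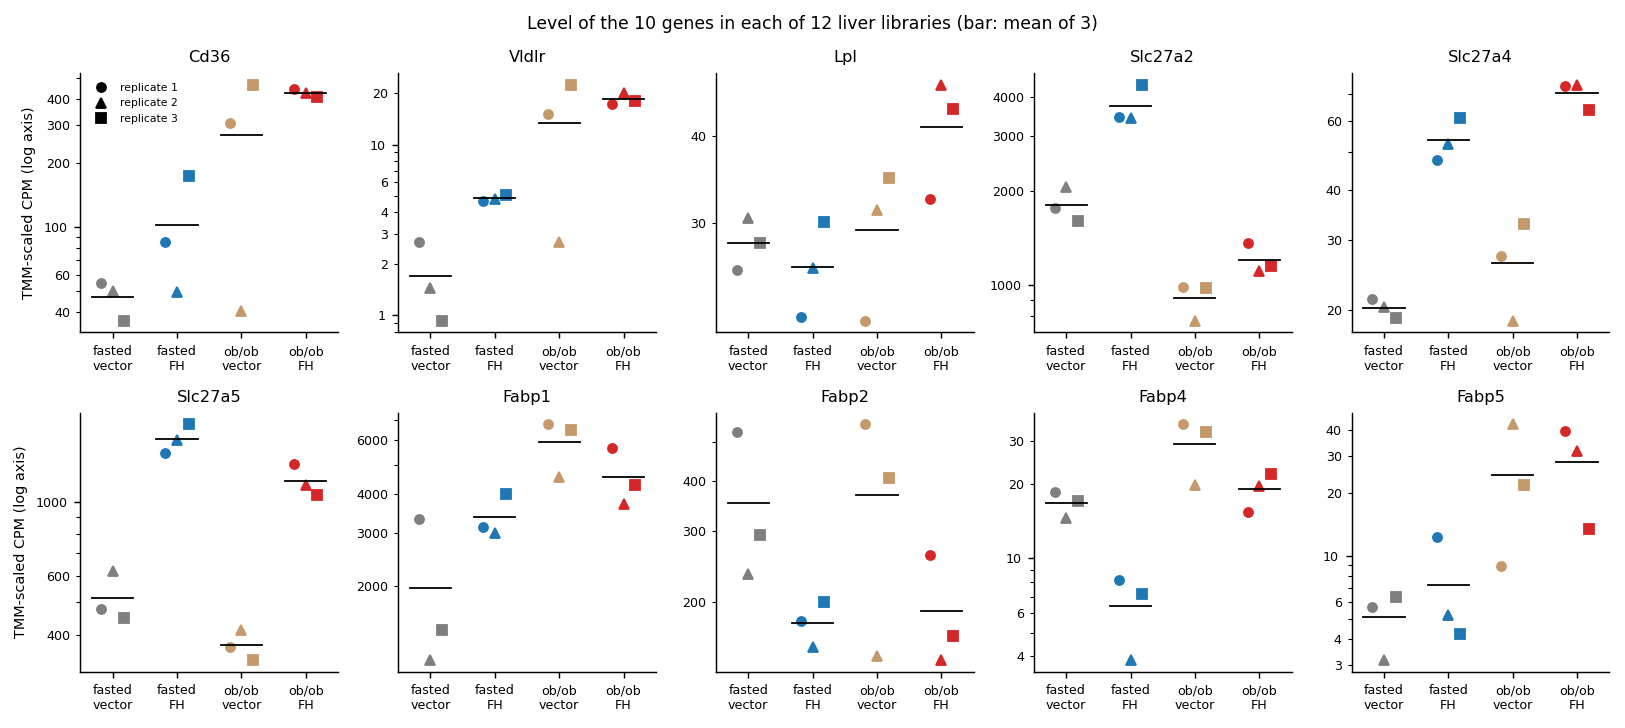
TMM-scaled CPM on log axes of the 10 genes in the 12 libraries, by group and replicate, with bars at the group means. Slc27a4 and Slc27a5 were higher in all FH than in all vector libraries of the same model, and ob/ob vector replicate 2 (triangle) lay among the fasted vector libraries for Cd36 and, on this scale only, for Vldlr.

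**Figure D2:**
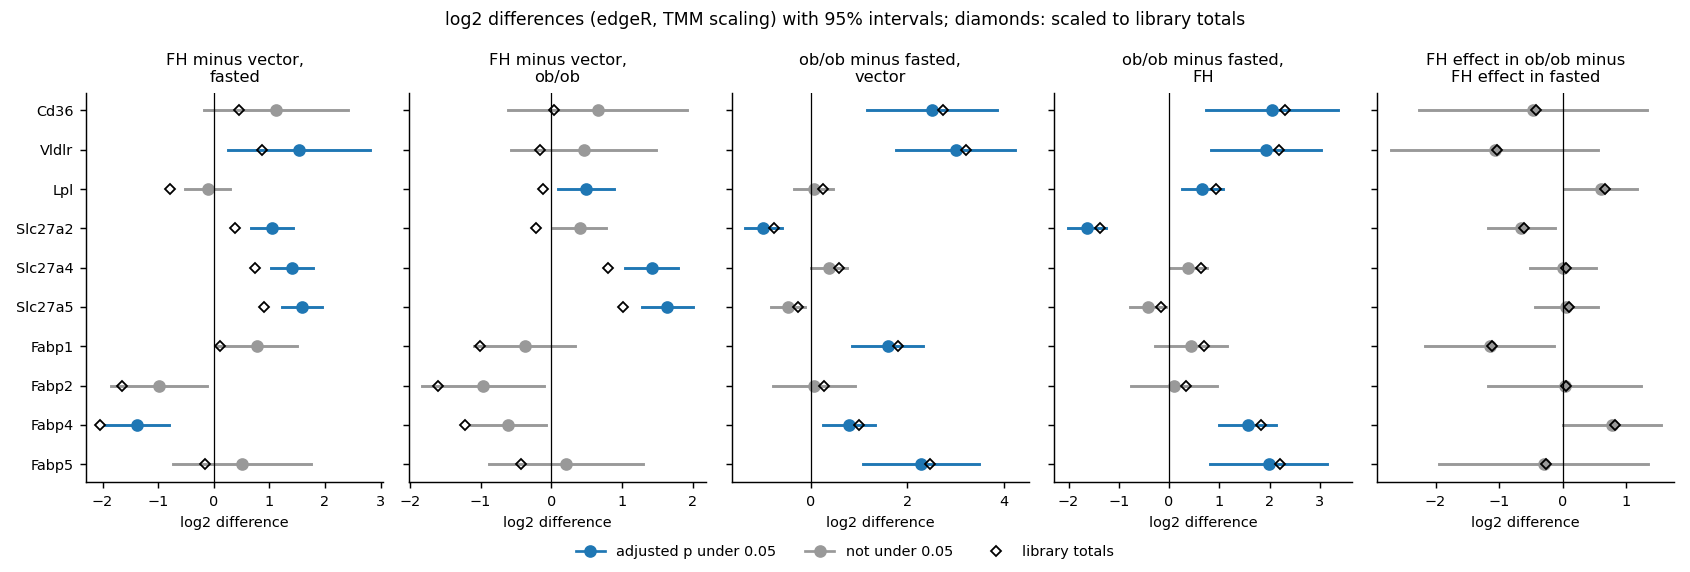
Log2 differences of the 10 genes in the 5 comparisons (dots, blue where the edgeR adjusted p was under 0.05), with 95% intervals as lines, and the same on library totals as diamonds. The diamonds lie to the left of the dots in both FH comparisons, and below 0 for Lpl, Slc27a2, Vldlr and Fabp5 in ob/ob livers where the dots lie above it.

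Cd36, the scavenger receptor that takes up long-chain fatty acids and oxidised lipoproteins, was called between the models. It was not called between the vectors in the edgeR fit of all 12 libraries after the filter on low counts. It stood at 54.9, 50.2 and 36.5 CPM in fasted vector replicates 1 to 3 and at 85.1, 49.9 and 173 CPM in fasted FH replicates 1 to 3. With the vector, ob/ob replicates gave 307, 40.7 and 463 CPM, and with FH 444, 426 and 405 CPM. Ob/ob vector replicate 2 lay within the range of the fasted vector libraries, and the other 5 ob/ob libraries lay above all 6 fasted ones. Among vector libraries Cd36 was 5.72-fold higher in ob/ob livers (log2 2.52, SE 0.62, adjusted p = 0.0144), and without that replicate the log2 difference was 3.03 (adjusted p = 1.72e-05). Leaving out fasted vector replicate 2 (2.56, adjusted p = 0.0506), replicate 3 of the same group (2.36, 0.0677) or ob/ob vector replicate 3 (1.88, 0.0575) ended the call, as did a fit of the 2 groups alone (2.54, 0.0519). Among FH libraries, whose groups did not overlap, it was 4.14-fold higher (log2 2.05, SE 0.61, adjusted p = 0.0167), and the call was lost without fasted FH replicate 1 (1.93, 0.0638) or replicate 2 (1.72, 0.0689). The FH effect did not pass in either model in the filtered fit of all 12 libraries. It was 1.12 in fasted livers (SE 0.60, adjusted p = 0.128, 0.45 on library totals). There it passed without ob/ob vector replicate 2 (1.14, adjusted p = 0.00620), with the 2 groups alone (1.07, 0.0124) and without a filter (1.10, 6.93e-09). For ob/ob livers the value was 0.65 (95% interval -0.61 to 1.92, adjusted p = 0.366, 0.03 on library totals), and 0.16 without that replicate. Without a filter the ob/ob value passed (0.66, adjusted p = 0.000681).

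Vldlr, the receptor for triglyceride-rich remnants, was the least abundant of the 10 per length of transcript. It held 38, 24 and 14 counts in fasted vector replicates 1 to 3, which is 2.69, 1.44 and 0.930 CPM, and 4.66, 4.81 and 5.03 CPM in fasted FH replicates. The ob/ob replicates read 15.2, 2.68 and 22.3 CPM (vector) and 17.2, 19.96 and 18.01 CPM (FH). As for Cd36, ob/ob vector replicate 2 lay within the fasted vector range, here just below its top, and the other 5 ob/ob libraries above all fasted ones. On library totals that replicate lay above the fasted vector range of Vldlr, at 3.60 CPM against a highest value of 3.08 CPM. Among vector libraries Vldlr was 7.99-fold higher in ob/ob livers (log2 3.00, SE 0.57, adjusted p = 0.00330), and among FH libraries 3.80-fold (log2 1.92, SE 0.51, adjusted p = 0.00909). Both calls held whichever of the 12 libraries was left out, with log2 differences of 2.41 to 3.49 and 1.87 to 2.02.

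With FH in fasted livers Vldlr rose 2.89-fold (log2 1.53, SE 0.59, adjusted p = 0.0418), and the 3 FH libraries lay above the 3 vector libraries, as did 30.4% of all genes. On library totals the difference was 0.87 (adjusted p = 0.215), and the call was lost without fasted vector replicate 2 or 3, any fasted FH replicate, or ob/ob FH replicate 1 or 3, at log2 differences of 1.26 to 1.56 and adjusted p of 0.0605 to 0.143. It was also lost with a filter of at least 1 CPM in 3 libraries (1.43, adjusted p = 0.0566), with protein-coding genes only (1.38, 0.0662) and with limma-voom (1.83, 0.0598). In ob/ob livers the FH difference of Vldlr was 0.46 (SE 0.48, adjusted p = 0.437), -0.16 on library totals and -0.01 without ob/ob vector replicate 2. The FH effects differed by -1.07 (95% interval -2.71 to 0.56, adjusted p = 0.421) with all libraries and by -1.56 (adjusted p = 0.0139) without that replicate.

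**Figure D3:**
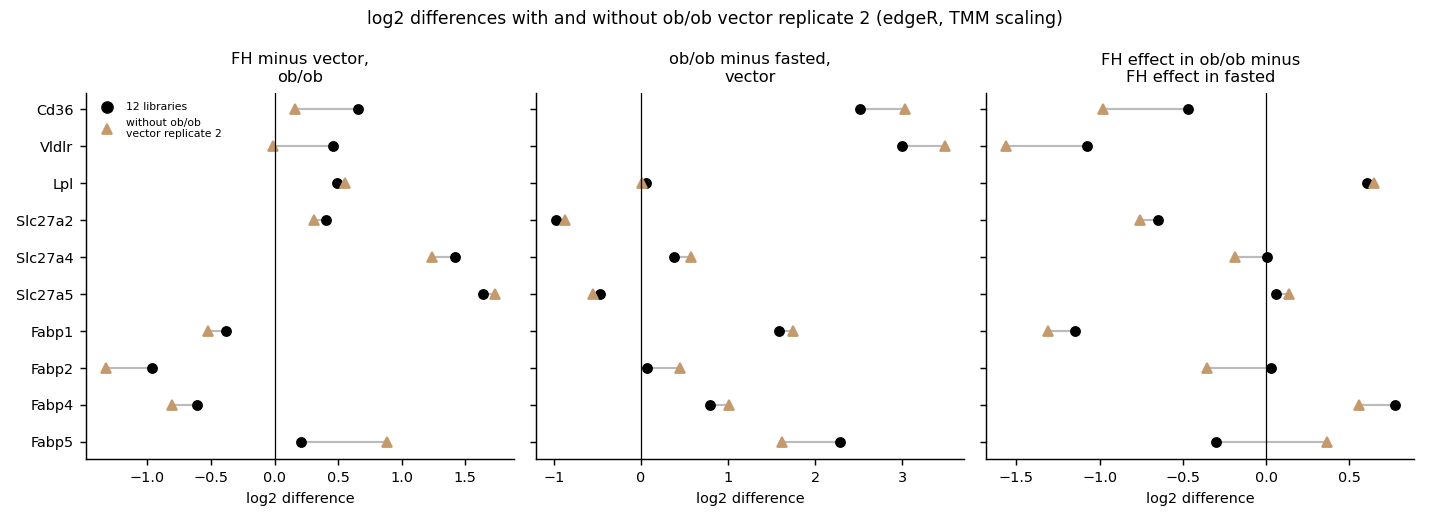
Log2 differences of the 10 genes in 3 comparisons with all 12 libraries (circles) and without ob/ob vector replicate 2 (triangles). Cd36, Vldlr, Fabp2 and Fabp5 move most, and the FH difference of Vldlr in ob/ob livers goes from 0.46 to -0.01.

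Lpl, the secreted lipase that is low in adult liver, differed least between groups of the genes on the lipoprotein side. It stood at 25.7, 30.5 and 28.0 CPM in fasted vector and at 22.0, 25.8 and 30.0 CPM in fasted FH replicates 1 to 3, ranges that overlap. Ob/ob replicates stood at 21.7, 31.2 and 34.8 CPM with the vector and at 32.4, 47.3 and 43.7 CPM with FH, where the lowest FH library lay below the highest vector library. With FH it rose 1.41-fold in ob/ob livers (log2 0.49, SE 0.18, adjusted p = 0.0375). On library totals the difference was -0.12 (adjusted p = 0.612), so the direction depends on the scaling. Leaving out ob/ob FH replicate 2 (0.39, adjusted p = 0.141), replicate 3 of that group (0.43, 0.122) or ob/ob vector replicate 1 (0.33, 0.144) ended it. So did the filter of 1 CPM in 3 libraries (0.45, 0.0558), protein-coding genes only (0.37, 0.107) and the 2 groups alone (0.43, 0.1155). In fasted livers the difference was -0.11 (SE 0.19, adjusted p = 0.631), and -0.79 on library totals (adjusted p = 0.00332). Among FH libraries Lpl was 1.58-fold higher in ob/ob livers (log2 0.66, SE 0.19, adjusted p = 0.0123), with no overlap, and the call was lost without fasted FH replicate 1 (0.56, 0.0577) or ob/ob FH replicate 2 (0.55, 0.0593). Among vector libraries it differed by 0.06 (95% interval -0.34 to 0.46). Macrophages and other non-hepatocytes are known sources of Lpl. The 14 Kupffer cell and macrophage markers, none at 0, summed to 349 to 540 CPM in ob/ob vector and 696 to 964 CPM in ob/ob FH libraries, with 9 called higher and 0 lower. On library totals the sums were 479 to 725 and 574 to 857 CPM, with 3 called higher and 1 lower. Over all genes 25.8% were called higher and 27.9% lower with FH in ob/ob livers (6.83% and 53.3% on totals). Their part in the Lpl difference was not tested.

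Of the transport proteins, Slc27a4 and Slc27a5 rose with FH in both models and Slc27a2 rose in fasted livers. Slc27a5 encodes FATP5, the liver transporter that also activates bile acids for conjugation. It stood at 478, 622 and 448 CPM in fasted vector and at 1395, 1522 and 1701 CPM in fasted FH replicates 1 to 3. With the vector, ob/ob replicates gave 366, 412 and 336 CPM, and with FH 1298, 1122 and 1044 CPM. Every FH library lay above every vector library of either model. The rise was 2.98-fold in fasted livers (log2 1.58, SE 0.17, adjusted p = 8.12e-06, 0.91 on library totals with adjusted p = 0.000127) and 3.11-fold in ob/ob livers (log2 1.64, SE 0.17, adjusted p = 6.31e-06, 1.01 on totals with adjusted p = 5.30e-05). The 2 rises differed by 0.06 (95% interval -0.44 to 0.56), an interval that leaves room for a difference of up to 0.56 log2 units. Between the models Slc27a5 differed by -0.47 among vector libraries (adjusted p = 0.0626) and by -0.42 among FH libraries (adjusted p = 0.0582). Both passed without ob/ob vector replicate 2 (-0.55, adjusted p = 0.0362, and -0.41, 0.0427), and the second also without fasted vector replicate 2 (-0.42, 0.0372). On library totals the differences were smaller, at -0.26 (adjusted p = 0.215) and -0.16 (0.396), and the groups overlapped in both.

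Slc27a4 encodes FATP4, a widely expressed acyl-CoA synthetase for long and very long chains. It stood at 21.3, 20.3 and 19.1 CPM in fasted vector and at 47.8, 52.3 and 61.0 CPM in fasted FH replicates 1 to 3. The ob/ob replicates read 27.3, 18.8 and 32.8 CPM (vector) and 73.3, 73.7 and 63.6 CPM (FH). Again no FH library overlapped a vector library on this scale. On library totals that held within each model only. There fasted FH replicates 1 and 2 (35.4 and 38.3 CPM) lay below ob/ob vector replicate 3 (43.3 CPM). It rose 2.65-fold in fasted livers (log2 1.41, SE 0.17, adjusted p = 2.50e-05, 0.74 on library totals with adjusted p = 0.00189) and 2.67-fold in ob/ob livers (log2 1.42, SE 0.17, adjusted p = 2.15e-05, 0.79 on totals with adjusted p = 0.00103). The 2 rises differed by 0.01 (95% interval -0.52 to 0.53). The FH calls of Slc27a4 and Slc27a5 held in both models whichever of the 12 libraries was left out. Between the models Slc27a4 differed by 0.38 among vector libraries (adjusted p = 0.156) and by 0.39 among FH libraries (adjusted p = 0.0842), and both passed without ob/ob vector replicate 2 (0.57, adjusted p = 0.00866, and 0.39, 0.0194) and on library totals (0.58, adjusted p = 0.0248, and 0.64, 0.00791).

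Slc27a2 encodes FATP2, the main liver transporter that also activates very long chain fatty acids, and it was the only one of the 10 called lower in ob/ob livers. It stood at 1760, 2050 and 1598 CPM in fasted vector and at 3445, 3421 and 4353 CPM in fasted FH replicates 1 to 3. Ob/ob replicates stood at 987, 771 and 981 CPM with the vector and at 1361, 1109 and 1152 CPM with FH. All 6 ob/ob libraries lay below all 6 fasted ones. Among vector libraries it was 1.97-fold lower in ob/ob livers (log2 -0.98, SE 0.18, adjusted p = 0.00215) and among FH libraries 3.10-fold lower (log2 -1.63, SE 0.18, adjusted p = 2.87e-05), and both calls held whichever library was left out. With FH it rose 2.07-fold in fasted livers (log2 1.05, SE 0.18, adjusted p = 0.000233), a rise that was 0.38 on totals (adjusted p = 0.0398). The FH difference in ob/ob livers was 0.40 (SE 0.17, adjusted p = 0.0651) with no overlap of the groups, and -0.22 on totals. It passed without fasted vector replicate 2 (0.42, adjusted p = 0.0499) and, of the settings that kept the 12 libraries or the 2 groups compared, with DESeq2 alone (0.39, 0.0305). The FH effects differed by -0.65 (95% interval -1.18 to -0.12, adjusted p = 0.118), and by -0.61 on totals.

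Hepatocyte markers were mostly higher, and a nuclear RNA lower, in the FH libraries. The 10 hepatocyte markers reached a sum of 56828 to 82863 CPM without and 171800 to 187060 CPM with FH in fasted livers, with 9 of 10 called higher and 0 lower (5 and 0 on totals). The same markers in ob/ob livers summed to 50369 to 62383 CPM with the vector and 145740 to 175160 CPM with FH, with 8 of 10 called higher and 0 lower (4 and 0 on totals). Over all genes 27.4% were called higher and 27.6% lower in fasted livers, and 25.8% and 27.9% in ob/ob livers. On totals these shares were 7.16% and 55.7%, and 6.83% and 53.3%. Malat1, a nuclear noncoding RNA, ranged over 358 to 558 CPM without and 12.7 to 80.9 CPM with FH, over both models. Their part in the rise of Slc27a2, Slc27a4 and Slc27a5 was not tested.

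Ratios of counts within 1 library need no scaling. These were chosen after the values were seen and are given as a description. Slc27a2 to Slc27a5 was 3.68, 3.298 and 3.56 in fasted vector and 2.47, 2.25 and 2.56 in fasted FH replicates 1 to 3. For ob/ob livers the value was 2.69, 1.87 and 2.92 with the vector and 1.05, 0.988 and 1.10 with FH. Within each model the ratio was lower in every FH library than in every vector library, so the share of Slc27a5 in the pair was larger with FH, although Slc27a2 stayed above it in 5 of the 6 FH libraries. Slc27a4 to Slc27a2 was 0.00992 to 0.0121 in fasted vector, 0.0139 to 0.0153 in fasted FH, 0.0244 to 0.0335 in ob/ob vector and 0.0539 to 0.0665 in ob/ob FH libraries, 4 ranges without overlap. Cd36 to Slc27a2 was 0.0146 to 0.0397 in the 6 fasted libraries, 0.0528 in ob/ob vector replicate 2 and 0.311 to 0.471 in the other 5 ob/ob libraries. For this ratio ob/ob vector replicate 2 lay between the models.

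**Figure D4:**
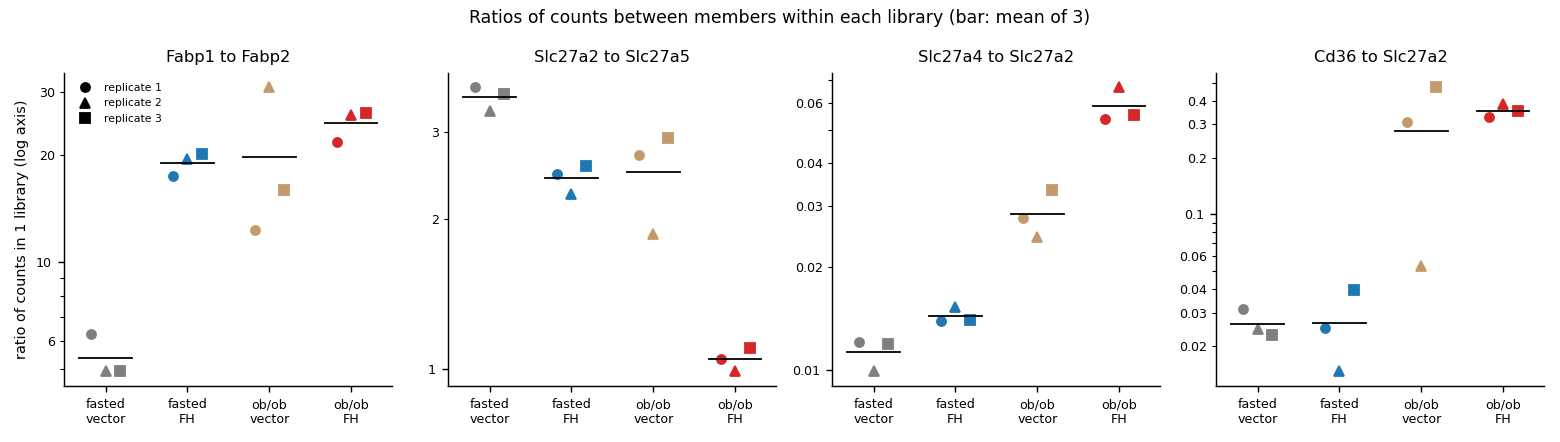
Ratios of counts between 2 genes within each library, on log axes, by group and replicate, with bars at the group means. Fabp1 to Fabp2 is lowest in the fasted vector libraries, Slc27a2 to Slc27a5 is lower with FH in both models and near 1 in ob/ob FH libraries, and Cd36 to Slc27a2 separates the models except for ob/ob vector replicate 2.

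Fabp1 encodes the main fatty acid binding protein of the hepatocyte cytosol and Fabp2 its intestinal relative. The start regions of both genes are shown because their count ratio differed between vector and FH libraries of the fasted livers. They run from 250 bases before to 50 bases after the annotated start, from RefSeq on GRCm38.p6, at chr6:71199629-71199928 on the plus strand for Fabp1 and chr3:122894822-122895121 on the plus strand for Fabp2, and the last part is transcribed. Capitals mark matches, on both strands, to AGGTCA (the core of nuclear receptor sites), to DR1 (AGGNCA, any base, AGGNCA, the kind of repeat that PPAR and RXR pairs bind) and to TATAAA.
Fabp1: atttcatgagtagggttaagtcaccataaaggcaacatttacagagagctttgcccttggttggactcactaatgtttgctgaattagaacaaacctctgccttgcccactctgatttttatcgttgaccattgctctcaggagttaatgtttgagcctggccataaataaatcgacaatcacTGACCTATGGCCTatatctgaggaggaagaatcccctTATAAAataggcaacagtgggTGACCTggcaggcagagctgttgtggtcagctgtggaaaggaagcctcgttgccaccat
Fabp2: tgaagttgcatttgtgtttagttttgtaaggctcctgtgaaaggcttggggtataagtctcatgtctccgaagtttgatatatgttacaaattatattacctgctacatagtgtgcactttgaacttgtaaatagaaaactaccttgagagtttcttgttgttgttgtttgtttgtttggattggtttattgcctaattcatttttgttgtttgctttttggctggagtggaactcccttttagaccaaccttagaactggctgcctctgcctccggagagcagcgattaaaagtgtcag

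The Fabp1 window held DR1 as TGACCTATGGCCT on the opposite strand, its first base at -67 from the start. The same bases hold one of 2 matches to AGGTCA, the other starting at -9, and TATAAA starts at -30. Of 32851 mouse promoters of this length, 0.381% hold DR1, 16.3% AGGTCA and 13.6% TATAAA. The Fabp2 window held none of the 3, which says only that these letters are not in it. A match is a description of letters, not a measured binding site. In all 6 of the 10 genes matched a RefSeq promoter, and of the others Cd36 and Slc27a2 held AGGTCA, starting at -228 and -220, while Slc27a4 and Vldlr held none of the 3. Fabp4, Fabp5, Slc27a5 and Lpl had no entry.

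Fabp1 stood at 3327, 1151 and 1441 CPM in fasted vector and at 3120, 2991 and 4000 CPM in fasted FH replicates 1 to 3. With the vector, ob/ob replicates gave 6772, 4542 and 6491 CPM, and with FH 5685, 3716 and 4294 CPM. Fasted vector replicate 1 was the high one of its group and lay among the FH libraries. Among vector libraries Fabp1 was 3.01-fold higher in ob/ob livers (log2 1.59, SE 0.34, adjusted p = 0.00647), a call that held whichever library was left out, at 1.32 to 2.20. Among FH libraries the difference was 0.44 (SE 0.33, adjusted p = 0.318). The FH difference in fasted livers was 0.77 (SE 0.34, adjusted p = 0.0654, 0.11 on library totals). It passed without fasted vector replicate 1 (1.33, adjusted p = 0.00116) or ob/ob vector replicate 2 (0.79, 0.0375). It also passed with DESeq2 (0.73, adjusted p = 0.0342), the replicate block (0.90, 0.0172), limma-voom (1.02, 0.00453) and no filter (0.74, 0.00240). It did not pass with RLE factors, the filter of 1 CPM in 3 libraries, protein-coding genes only or the 2 groups alone. In ob/ob livers it was -0.38 (SE 0.33, adjusted p = 0.357), and -1.01 on totals (adjusted p = 0.0150). The FH effects differed by -1.15 (95% interval -2.17 to -0.13, adjusted p = 0.149), which passed without fasted vector replicate 1 (-1.72, adjusted p = 0.0110). With all 12 libraries it passed with limma-voom (-1.60, adjusted p = 0.0136) and without a filter (-1.11, 0.00627), and under no other setting.

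Fabp2 was lower in every FH than in every vector library of the fasted livers. It stood at 529, 234 and 293 CPM in fasted vector and at 178, 154 and 199 CPM in fasted FH replicates 1 to 3, with no overlap. The ob/ob replicates read 552, 147 and 407 CPM (vector) and 261, 143 and 164 CPM (FH), where ob/ob vector replicate 2 lay among the FH libraries. The FH difference in fasted livers was -0.99 (SE 0.40) at an adjusted p of 0.0501, just outside the threshold. It passed under all 9 other settings that kept the 12 libraries or the 2 groups compared, and without fasted vector replicate 2 (-1.20, adjusted p = 0.0338), ob/ob FH replicate 1 (-1.06, 0.0377), ob/ob FH replicate 3 (-1.06, 0.0480), ob/ob vector replicate 1 (-0.97, 0.0396) or ob/ob vector replicate 2 (-0.98, 0.00571). In ob/ob livers it was -0.96 (SE 0.40, adjusted p = 0.0572), and it passed without fasted vector replicate 1 (-0.98, 0.0399), ob/ob FH replicate 1 (-1.28, 0.0346) or ob/ob vector replicate 2 (-1.33, 0.00155). On library totals both passed, at -1.66 (adjusted p = 0.00292) and -1.60 (0.00365). The ob/ob difference also passed without a filter (-0.95, adjusted p = 7.79e-07), with 1 CPM in 3 libraries (-1.01, 0.0499) and with protein-coding genes only (-1.08, 0.0394). So it did with the replicate block (-0.86, 0.0183) and limma-voom (-1.34, 0.00121), but not with DESeq2, RLE factors or the 2 groups alone. Between the models Fabp2 differed by 0.07 among vector libraries (95% interval -0.79 to 0.92) and by 0.10 among FH libraries (-0.76 to 0.95). Fabp2 overlaps the opposite-strand gene 4933405D12Rik, which held 1 to 32 counts, and Slc27a2 overlaps Gm26697. Whether the counting used strand is not stated in these sources.

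The count ratio of Fabp1 to Fabp2, free of scaling, was 6.28, 4.91 and 4.92 in fasted vector and 17.5, 19.5 and 20.1 in fasted FH replicates 1 to 3. In ob/ob livers it was 12.3, 31.0 and 15.9 with the vector and 21.8, 26.0 and 26.2 with FH. The fasted vector libraries lay below all other libraries. Ob/ob vector replicates 1 and 3 lay below the ob/ob FH libraries and replicate 2 above them. Fasted vector replicate 1, high in both genes, had a ratio near that of its group.

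Fabp4 is the binding protein of adipocytes, macrophages and endothelium, and it is scarce in hepatocytes. It stood at 18.6, 14.6 and 17.1 CPM in fasted vector and at 8.20, 3.87 and 7.18 CPM in fasted FH replicates 1 to 3, with no overlap. Ob/ob replicates stood at 34.9, 19.7 and 32.4 CPM with the vector and at 15.5, 19.7 and 21.9 CPM with FH, where the ranges overlapped. With FH it fell 2.61-fold in fasted livers (log2 -1.38, SE 0.26, adjusted p = 0.000655, -2.06 on library totals), a call that held whichever library was left out. The FH difference in ob/ob livers was -0.61 (SE 0.25, adjusted p = 0.0502), and -1.22 on totals (adjusted p = 0.00120). It passed under all 9 other settings that kept the 12 libraries or the 2 groups compared, and without fasted FH replicate 1 (-0.60, adjusted p = 0.0499), fasted FH replicate 2 (-0.60, 0.0253), ob/ob FH replicate 3 (-0.74, 0.0486) or ob/ob vector replicate 2 (-0.81, 0.00571). The FH effects differed by 0.77 (95% interval 0.003 to 1.55, adjusted p = 0.199).

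Fabp4 was higher in ob/ob livers. Among FH libraries the difference was 2.96-fold (log2 1.57, SE 0.26, adjusted p = 0.000518) and held whichever library was left out. Among vector libraries it was 1.73-fold (log2 0.79, SE 0.25, adjusted p = 0.0426) with no overlap, but the call was kept in 4 of the 12 fits with a library left out. It was lost without any fasted vector replicate, fasted FH replicate 3, ob/ob FH replicate 2 or 3, or ob/ob vector replicate 1 or 3, at log2 differences of 0.64 to 0.88 and adjusted p of 0.0527 to 0.153. A fit of the 2 groups alone also ended it (0.82, adjusted p = 0.0515), and without ob/ob vector replicate 2 it was 1.01 (adjusted p = 0.00341).

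Endothelial and macrophage markers were mostly called lower with FH in fasted livers, where Fabp4 was also lower. On the TMM scale more of them were called higher than lower in ob/ob livers, where the FH difference of Fabp4 was below 0. Adipocyte markers, given below, did not show this pattern. All 13 endothelial markers were called lower with FH in fasted livers, also on library totals, and their sum was 431 to 502 CPM in vector and 194 to 217 CPM in FH libraries. The ob/ob sums were 314 to 386 CPM with the vector and 418 to 494 CPM with FH, but 431 to 509 and 344 to 448 CPM on library totals. Of the 13, 6 were called higher and 1 lower there, and on totals 2 higher and 6 lower. Of 14 Kupffer cell and macrophage markers 10 were called lower with FH in fasted livers and 0 higher (11 and 0 on totals). Their sums were 495 to 692 CPM in vector and 258 to 288 CPM in FH libraries. In the ob/ob FH comparison 9 of the 14 were higher and 0 lower, with the sums and the counts on totals given beside Lpl. Over all genes 27.4% were called higher and 27.6% lower with FH in fasted livers, and 25.8% and 27.9% in ob/ob livers. On totals these shares were 7.16% and 55.7%, and 6.83% and 53.3%. Between vector libraries of the models 0 endothelial markers were called higher and 5 lower in ob/ob livers (0 and 0 on totals). For macrophage markers these counts were 0 and 1 (1 and 1 on totals), while Fabp4 was higher. Over all genes 9.36% were called higher and 8.18% lower between these libraries (17.9% and 4.21% on totals). The 10 adipocyte markers, of which 4 could be tested, summed to 16.5 to 19.6 CPM in fasted vector, 12.1 to 13.001 in fasted FH, 24.7 to 71.2 in ob/ob vector and 34.9 to 48.9 in ob/ob FH libraries. With FH 1 was higher and 1 lower in fasted livers, and 0 and 1 in ob/ob livers (on totals 0 and 1, and 0 and 2). Cidea alone gave 32.8, 0.158 and 60.6 CPM of the ob/ob vector sums and 23.7 to 39.9 CPM of the ob/ob FH sums, and Adrb3 gave 9.004 to 14.7 CPM of the fasted vector sums. Ob/ob vector replicate 2, with 46 counts of Adipoq and 18 of Plin1, had the lowest sum of its group. Lep, Tshr and Ucp1 were at 0 in both fasted groups, Plin1 and Retn also in fasted FH, Ucp1 in ob/ob vector, and Tshr and Ucp1 in ob/ob FH libraries. The part of these cells in the Fabp4 differences was not tested.

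**Figure D5:**
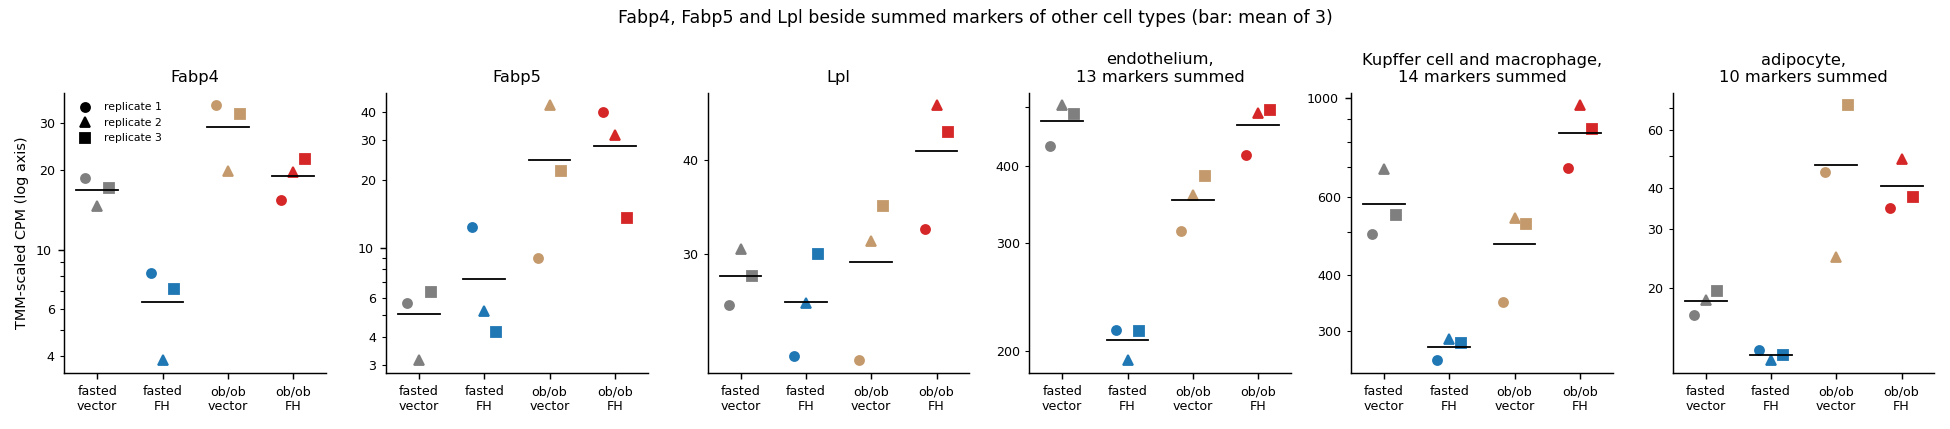
TMM-scaled CPM on log axes of Fabp4, Fabp5 and Lpl beside the summed markers of endothelium, Kupffer cells and macrophages, and adipocytes, by group and replicate, with bars at the group means. Fabp4 and the endothelial and macrophage sums are lowest in the fasted FH libraries. In ob/ob livers both sums are higher with FH on this scale (the endothelial one is lower on library totals), while the mean of Fabp4 is lower.

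Fabp5, the epidermal binding protein that macrophages also express, varied widely within groups. It stood at 5.67, 3.17 and 6.37 CPM in fasted vector and at 12.3, 5.21 and 4.23 CPM in fasted FH replicates 1 to 3. With the vector, ob/ob replicates gave 8.99, 42.7 and 21.8 CPM, and with FH 39.8, 31.7 and 13.5 CPM. The highest value of all 12 was that of ob/ob vector replicate 2, the library in which Cd36 and Vldlr were low. Among vector libraries Fabp5 was 4.86-fold higher in ob/ob livers (log2 2.28, SE 0.56, adjusted p = 0.0137), 1.62 without ob/ob vector replicate 2 (adjusted p = 0.0256), and the call was lost without fasted vector replicate 2 (2.03, 0.0638) or with limma-voom (1.53, 0.154). Among FH libraries it was 3.95-fold higher (log2 1.98, SE 0.54, adjusted p = 0.0110), lost without fasted FH replicate 3 (1.70, 0.0517). FH gave no call, at 0.51 in fasted livers (95% interval -0.73 to 1.75, -0.17 on totals) and 0.21 in ob/ob livers (-0.88 to 1.29, -0.43 on totals). Without ob/ob vector replicate 2 the ob/ob value was 0.89 (adjusted p = 0.121). Processed copies of Fabp5 exist in the mouse genome, and the sources used here do not say how reads that match several places were counted.

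The order of the 10 genes by level per length, in CPM per kilobase of exon, was led by Fabp1 in all 4 groups, with means of 3568 in fasted vector, 6095 in fasted FH, 10732 in ob/ob vector and 8255 in ob/ob FH libraries. Slc27a2, Fabp2 and Slc27a5 took places 2 to 4, Cd36 place 5 and Vldlr the last place in every group. In fasted vector libraries Slc27a2 (480 ± 60.9), Fabp2 (365 ± 162) and Slc27a5 (212 ± 38.0) overlapped as neighbours. In fasted FH libraries Slc27a2 (996 ± 141), Slc27a5 (632 ± 63.0) and Fabp2 (184 ± 23.6) stood apart from one another. In ob/ob FH libraries Slc27a5 (474 ± 53.3) came before Slc27a2 (322 ± 36.0), the only group with that order, and their libraries did not overlap. At the lower end Fabp5 and Fabp4 did not separate in fasted FH, ob/ob vector or ob/ob FH libraries.

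The likeness of patterns is given as Pearson r of log2(CPM + 1) over the 12 libraries, which share their groups, so r reflects the group means and carries no test. Among the 10 genes, Cd36 and Vldlr were the most alike (0.95), followed by Slc27a4 and Slc27a5 (0.82), and Fabp4 and Slc27a2 the most opposed (-0.88). Of 11685 genes ranked, those most like Cd36 were Ly6d (0.98), Tceal8 (0.98) and Chchd6 (0.98), and those most like Vldlr were Rtn4 (0.99), Tceal8 (0.98) and Abcd2 (0.98). Slc27a2 was most like Pum3 (0.99), Timm17a (0.98) and Creb3l3 (0.98). Slc27a5 was most like Serping1, Fah and Os9, and Slc27a4 most like Ctsd, Capns1 and Bsg, each at 0.99. For Fabp1 the closest gene was Uchl3 (0.94), for Fabp2 Syap1 (0.92), for Fabp4 Xrcc3 (0.98), for Fabp5 Slc44a1 (0.93) and for Lpl C3ar1 (0.95).

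Other genes of the pathway were counted by list. Over all genes 27.4% were called higher and 27.6% lower with FH in fasted livers, and 25.8% and 27.9% in ob/ob livers. On totals these shares were 7.16% and 55.7%, and 6.83% and 53.3%. They apply to every FH count in this and the following paragraphs on lists. A count near them says nothing particular about its list. The named ones that passed with FH kept their direction and their call on totals, except Slc27a1 and, in ob/ob livers, Zdhhc5, but the rises were smaller there. Of 2 other SLC27 genes tested, Slc27a1 rose with FH in fasted livers (log2 1.00, adjusted p = 0.00617, 0.33 on totals) and was lower in ob/ob than in fasted livers (-1.57 with the vector, -2.98 with FH), the same direction as Slc27a2. Slc27a3, at 0.994 ± 0.542 CPM in fasted vector libraries, fell with FH in both models (-1.73 and -1.75). Of 8 acyl-CoA synthetases 5 rose and 0 fell with FH in fasted livers (median 0.83), and 3 rose and 1 fell in ob/ob livers (0.39). On totals these counts were 3 and 2, and 2 and 3. Acsl5 rose in both (1.45 and 1.76, on totals 0.79 and 1.14), Acsl1, the main long-chain synthetase of liver, rose in fasted livers (1.18, on totals 0.51), and Acsm3 fell in ob/ob livers (-0.58). Of 7 acyl-CoA thioesterases 4 rose and 0 fell in fasted livers (median 1.12; on totals 2 and 2) and 2 rose and 0 fell in ob/ob livers (0.37; on totals 1 and 1), among them Acot7 (1.26 and 1.25, on totals 0.59 and 0.63). Of 7 other binding and carrier genes 2 rose and 1 fell in fasted livers and 1 rose and 2 fell in ob/ob livers, with Got2 at 1.87 and 1.62 (on totals 1.21 and 0.99) and Fabp7 at -1.98 and -1.22. On totals 1 rose and 4 fell, and 1 rose and 5 fell.

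Around Lpl and Vldlr, 10 of 16 genes of the lipase system rose and 2 fell with FH in fasted livers (median 0.60) and 10 rose and 1 fell in ob/ob livers (0.81). On totals these counts were 5 and 3, and 5 and 4. Lmf1, which helps Lpl to fold, and Lmf2 rose in both models (1.41 and 1.22 for Lmf1, 1.31 and 1.41 for Lmf2), on totals by 0.74 and 0.60 and by 0.64 and 0.79. Apoc2, the activator of Lpl, fell in both (-2.76 and -2.50), and Gpihbp1, which carries Lpl to the capillary surface, fell in fasted livers (-1.70) and gave a difference between the FH effects of 1.78 (adjusted p = 0.00119). Gpihbp1 is also one of the endothelial markers. Angptl4, an inhibitor of Lpl, was lower in ob/ob than in fasted livers with either vector (-1.18 and -1.27). Of 16 lipoprotein receptor genes 10 rose and 3 fell with FH in fasted livers (median 0.89; on totals 4 and 5) and 9 rose and 3 fell in ob/ob livers (0.53; on totals 3 and 3). Lrpap1, a chaperone of the receptor family, rose in both (1.41 and 1.14, on totals 0.74 and 0.52), and Stab1 and Msr1 fell in fasted livers (-2.29 and -2.07).

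Of 13 genes of CD36 trafficking and membrane uptake 6 rose and 2 fell with FH in fasted livers (median 0.35; on totals 1 and 6) and 5 rose and 1 fell in ob/ob livers (0.53; on totals 0 and 4). Zdhhc5, which attaches palmitate to CD36, rose in both (1.22 and 0.81), with totals values of 0.55 and 0.19, while Cav2 fell in both (-2.17 and -1.55). Between vector libraries of the models edgeR called 0 of these 13, where 17.5% of all genes were called. On totals 2 were higher and 0 lower, where 22.1% of all genes were called. Of 23 nuclear receptors and factors 11 rose and 0 fell in fasted livers (median 0.34; on totals 2 and 8) and 7 rose and 3 fell in ob/ob livers (0.16; on totals 2 and 12). Rxra and Cebpa rose in both on either scaling, at 1.64 and 1.04 and at 1.37 and 1.19 (on totals 0.97 and 0.42 and 0.70 and 0.56). Pparg was higher in ob/ob than in fasted vector libraries (2.03, adjusted p = 0.00225), in the same direction as Cd36, Vldlr and Fabp4. Its ob/ob vector replicates stood at 24.1, 7.61 and 28.3 CPM, so replicate 2 was low for it too.

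Of 21 PPAR-controlled genes 13 rose and 2 fell with FH in fasted livers (median 1.37; on totals 7 and 3) and 8 rose and 3 fell in ob/ob livers (0.40; on totals 1 and 4). Cpt1a, which lets long-chain acyl groups into mitochondria, rose in fasted livers (1.53, on totals 0.87). Cyp4a10 was at 3277 ± 896 CPM in fasted vector and 242 ± 123 CPM in ob/ob vector libraries (-3.76, adjusted p = 4.73e-05), the direction of Slc27a2 and opposite to Cd36 and Fabp1. Among vector libraries 3 of the 21 were higher and 7 lower in ob/ob livers, and among FH libraries 3 and 10. On totals these counts were 5 and 7, and 3 and 9. Over all genes 9.36% were called higher and 8.18% lower among vector libraries, and 18.6% and 21.6% among FH libraries. On totals the shares were 17.9% and 4.21%, and 26.5% and 9.70%. Cpt1b held 3, 23 and 14 counts in ob/ob vector and 0 in each ob/ob FH library, at least 4.68-fold lower against a floor of 3 counts per library. Acot and Cyp4a genes have close paralogs, and reads may be split between them.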

How the data were processed

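The authors' deposited table gives raw read counts per gene for 12 libraries. Per the labels' protocols, 1 µg of TRIzol-extracted total RNA went into a stranded mRNA kit from Illumina, and per the submitters' processing notes STAR 2.7.11a and GRCm39 were used. Counting tool, annotation and use of strand were not given in these sources. The table holds capital-letter symbols, of which 49047 were matched by symbol to GENCODE M21 for mouse spelling, biotype and exon length. Columns with fasted and no FH in their name were read as fasted vector, the only such group.

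Counts were fitted in R 4.3.3 with edgeR 4.0.16 (filterByExpr with 10 counts and 15 in total, TMM, quasi-likelihood F test) over all 12 libraries in 4 groups, 8 residual degrees of freedom. Adjusted p is Benjamini-Hochberg over 15228 genes, with calls under 0.05. SE belongs to the log2 difference, and ± is the SD of 3 libraries. The steps were tested on simulated data. Other settings used limma 3.58.1 and DESeq2 1.42.0. All 10 genes are named whatever their p, and from each list up to 4 called genes of smallest adjusted p could be named. The genes and lists were chosen with earlier results of these data known, and ob/ob vector replicate 2 and the count ratios were singled out after values were seen. Libraries of 1 group differed by 22.0 to 119 times the sampling noise (chi-square per degree of freedom), so none was counted as a duplicate. Intervals cover the spread between libraries, floors counting error only.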

Additional observations from a re-analysis of the deposited data

How the results depend on the processing

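The rises of Slc27a4 and Slc27a5 with FH in both models and the lower Slc27a2 in ob/ob livers kept direction and call under every setting run: library totals, RLE factors, DESeq2, no filter, at least 1 CPM in 3 libraries, protein-coding genes, the replicate block, the 2 groups alone, limma-voom with sample weights and each library left out. The number of the 10 genes called in the ob/ob FH comparison went from 3 to 5 with library totals, DESeq2, the block or limma-voom (60.1%, 53.5%, 53.0% and 59.9% of all genes), and to 6 without a filter (31.0%). Without a filter it went from 5 to 9 in fasted livers (30.7% of all genes) and from 0 to 3 for the difference of FH effects (6.47%), and to 2 there with limma-voom (12.9%). The cause was not tested, and without a filter 28566 genes, many with few counts, are tested. Over all genes, 1244 were called between the vector groups when fitted alone, against 2671, and 1964 for the difference with limma-voom, against 1282. A fit of 2 groups alone also sets filter, scaling and spread anew. With 1 library left out the genes called of the 10 were 4 to 8 (fasted FH; 45.1% to 57.7% of all genes), 2 to 5 (ob/ob FH; 45.2% to 53.5%), 3 to 8 (models, vector; 10.4% to 21.3%), 4 to 8 (models, FH; 29.3% to 42.5%) and 0 to 1 (difference; 3.76% to 10.3%), and over all genes 1669 to 3412 (models, vector) and 582 to 1651 (difference). Replicate numbers did not pair the libraries: deviations of same-numbered libraries correlated at -0.21 to 0.21, 4 of 18 above 0.1. With the replicate block 7, 5, 6, 6 and 0 of the 10 were called (53.9%, 53.0%, 16.1%, 39.6% and 7.47% of all genes), and the Cd36 difference of FH effects turned to 0.11.

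Signs that turned, all of values that were not called except Lpl with FH in ob/ob livers, were as follows. On library totals they were Fabp5 (-0.17 fasted FH, -0.43 ob/ob FH) and, for FH in ob/ob livers, Slc27a2 (-0.22), Lpl (-0.12) and Vldlr (-0.16). With limma-voom they were Lpl between vector groups (-0.10), Fabp2 between FH groups (-0.0332), and in the difference Fabp2 (-0.50), Fabp5 (0.34) and Slc27a4 (-0.10). With 1 library left out, ranges that crossed 0 were, for the difference, Fabp2 (-0.35 to 0.44), Fabp5 (-0.70 to 0.37), Cd36 (-0.98 to 0.17), Slc27a4 (-0.19 to 0.20) and Slc27a5 (-0.10 to 0.17). Between models they were Fabp2 (-0.34 to 0.49 vector, -0.16 to 0.26 FH) and Lpl (-0.083 to 0.24 vector). For FH they were Fabp5 (-0.0939 to 0.80 fasted, -0.17 to 0.89 ob/ob), Lpl (-0.23 to 0.0007 fasted) and Vldlr (-0.0147 to 1.07 ob/ob). With the longest transcript as length, Fabp1 stayed first, Cd36 kept place 5 and Vldlr the last place, and places 6 to 9 moved for Lpl, Fabp4, Slc27a4 or Fabp5. Vldlr in fasted vector libraries rests on 14 to 38 counts, which limits its precision.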
